A study of Homo sapiens with 8 samples.

Results

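The end of the long arm of human chromosome 7, band 7q36.3 included, was taken as every listed RBPMS eCLIP peak on chromosome 7 that starts beyond position 154000000 of build hg19, on either strand. It held 848 of the 194003 peaks listed over 4 libraries, or 0.437%, and the last of them ended at position 158739586. Within it 148 peaks lay on the minus strand in the ESYT2 window (chr7:158523000-158623000), 179 on the minus strand in the PTPRN2 window (chr7:157331000-158381000), and 521 elsewhere. The stretch and its windows were chosen by position after the deposited folds and p-values had shown many enriched peaks there, so the counts and folds by window are given as a description with no test.

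The series holds 4 eCLIP and 4 input libraries of human embryonic stem cells, all of the established line HUES6. All were of WT genotype, labelled control for treatment and grown in FTDA medium, so by the labels the groups differ in the antibody alone: one specific for RBPMS in the eCLIP libraries and none in the input libraries. Dishes of about 20M cells were crosslinked with UV light at 400 mJ/cm2, and read pairs of 75 nt were sequenced. The input libraries entered only through the authors' values, a log2 fold of immunoprecipitation over input and a −log10 p for each peak of each eCLIP library, and no source says that the libraries are separate cultures: the spread between them may be technical.

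RBPMS is an RNA-binding protein with a single RNA recognition motif. eCLIP crosslinks proteins to the RNA they touch, pulls one protein down with its antibody, and reads the RNA that came with it against RNA of the same lysate. ESYT2, extended synaptotagmin 2, tethers the endoplasmic reticulum to the plasma membrane and moves lipids between them. PTPRN2, also known as phogrin or IA-2 beta, is a protein of the receptor tyrosine phosphatase family found in the dense-core secretory vesicles of neuroendocrine cells. In RefSeq's table for GRCh38.p14 the neighbours along the chromosome are, in order, DNAJB6, PTPRN2, NCAPG2, ESYT2, DYNC2I1 and VIPR2. That table was used for names and order only, and no peak was placed in an exon, intron or UTR, since no annotation of hg19 was used here.

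Libraries 1, 2, 3 and 4 listed 109, 445, 118 and 176 peaks at the 7q end. A peak was called enriched at a log2 fold of at least 3, which is 8-fold over input, together with a −log10 p of at least 3. Over whole lists, 15.9%, 5.38%, 12.6% and 12.7% of peaks were enriched in libraries 1, 2, 3 and 4. At the 7q end the shares were 34.9%, 18.4%, 36.4% and 36.9%, with 38, 82, 43 and 65 enriched peaks. Over the peaks they share, libraries 3 and 4 did not differ in reads beyond sampling noise; they count as 1 sample here, so a mean is over n = 3 samples, namely library 1, library 2 and the mean of libraries 3 and 4. The mean share at the 7q end was 30.0% ± 10.1 (SD, n = 3), against 8.99% ± 4.42 on the rest of chromosome 7 and 11.3% ± 5.40 over whole lists.

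Peak by peak, most of the enriched peaks lay in the ESYT2 and PTPRN2 windows. With enriched peaks at most 5 kb apart counted once this turned over, to 3 in ESYT2, 3.5 in PTPRN2 and 7.5 in the rest of 14 per sample. ESYT2 held 17.5% of the listed peaks of the 7q end and 45.6% of its 228 enriched ones. PTPRN2 held 21.1% and 28.1%, and everything else held 61.4% and 26.3%. Outside both windows the mean enriched share was 12.0% ± 4.47 (SD, n = 3), within the spread of the whole lists. The 228 enriched peaks of the end were 1.36% of all enriched peaks in the series.

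**Figure D1:**
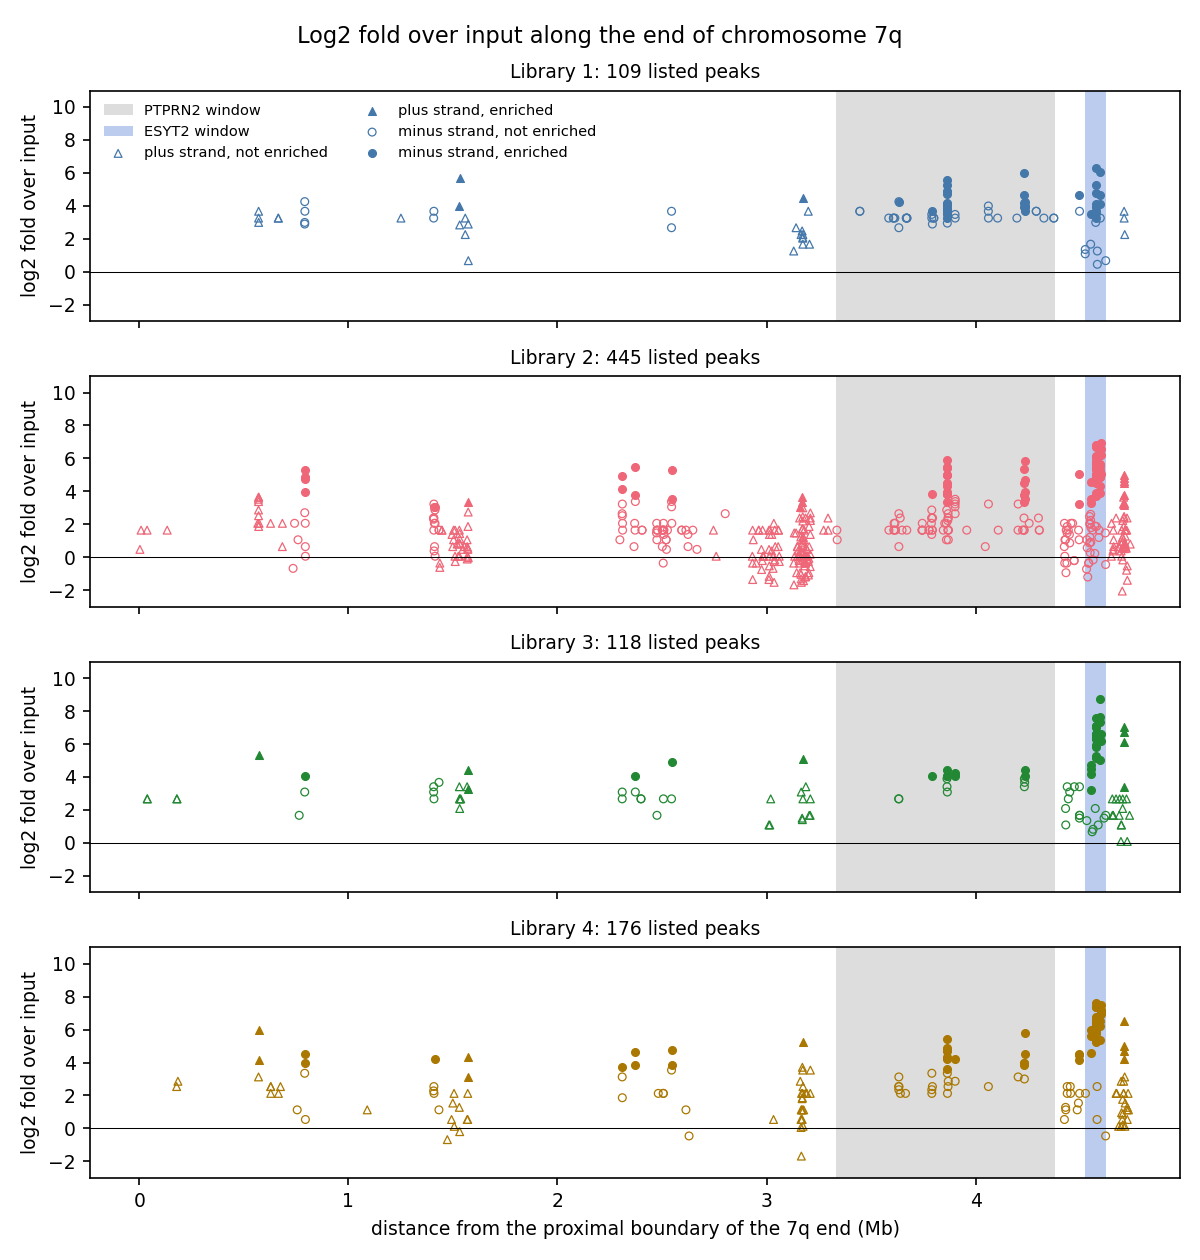
Log2 fold over input (vertical axis) of every listed peak against distance in Mb from the proximal boundary of the 7q end (horizontal axis), with 1 panel per library, filled symbols for enriched peaks, triangles for the plus strand and circles for the minus strand. The filled circles stack at a few positions inside the PTPRN2 and ESYT2 windows, and in libraries 3 and 4 the ESYT2 stacks rise above the rest.

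Both windows held peaks on the minus strand alone. No library listed a plus-strand peak in either window, and no minus-strand peak crossed a window's edge. RefSeq places ESYT2 on the minus strand. Over the whole 7q end 197 of 496 minus-strand peaks and 31 of 352 plus-strand peaks were enriched, whereas over the series the strands held 7892 of 91537 and 8882 of 102466. The windows were chosen on the minus strand and held 104 (ESYT2) and 64 (PTPRN2) of the 197, so the contrast partly follows from that choice. Proximal of PTPRN2 23 of 122 minus-strand and 16 of 254 plus-strand peaks were enriched. Between the windows 6 of 47 were, all listed on the minus strand, and distal of ESYT2 15 of 98, all on the plus strand.

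ESYT2 held the denser enrichment. Of its listed peaks, 12 of 20, 36 of 61, 24 of 31 and 32 of 36 were enriched in libraries 1, 2, 3 and 4. These are 60.0% (95% Wilson interval 38.7% to 78.1%), 59.0% (46.5% to 70.5%), 77.4% (60.2% to 88.6%) and 88.9% (74.7% to 95.6%). The intervals cover counting error only, and they treat neighbouring peaks as independent, which abutting peaks are not. Libraries 1 and 2 were close to each other and libraries 3 and 4 were higher, and all 4 shares lay above their library's background. The mean share was 67.4% ± 13.7 (SD, n = 3), from 25.3 ± 12.2 enriched peaks.

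The median log2 fold of the ESYT2 peaks was 3.54, 4.31, 5.93 and 6.33 in libraries 1, 2, 3 and 4. The highest single peak stood at 6.31, 6.92, 8.76 and 7.59 in the same order. Library 1 was lowest in both. All 15 peaks of the 7q end whose deposited −log10 p sat at its top value of 400 lay in ESYT2, 6 of them in library 3 and 9 in library 4. A further 49 ESYT2 peaks sat at 15.7, a value at which many deposited p-values stop, against 4 in PTPRN2 and 4 in the rest. Values at 400 or at 15.7 have no order among themselves. Of the 148 ESYT2 peaks 7 lay below input, and the deposited p of a peak below input is 0 on the −log10 scale, so depletion was not tested.

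**Figure D2:**
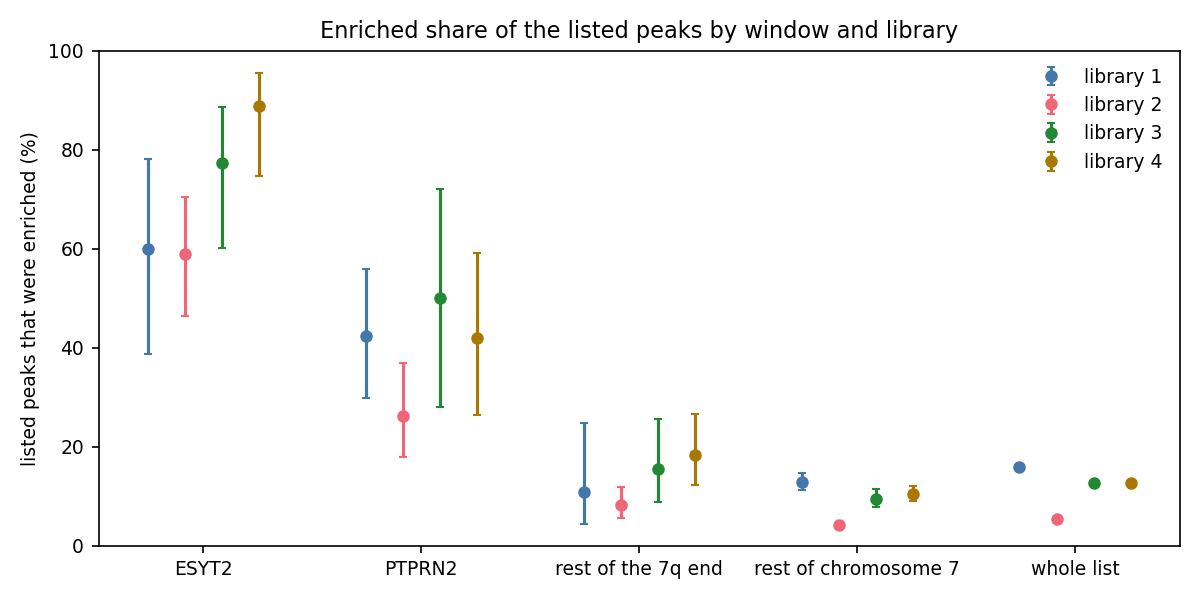
Share of listed peaks that were enriched, in percent (vertical axis), by window (horizontal axis) and library (colour), with bars for the 95% Wilson interval of each library. The ESYT2 points lie from 59.0% to 88.9% and the PTPRN2 points from 26.3% to 50.0%, and the rest of the 7q end lies from 8.22% to 18.3%.

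The 104 enriched ESYT2 peaks fell into 3 short runs. Enriched peaks of all libraries that shared at least 1 base on a strand were merged into regions, and regions at most 5 kb apart on a strand were joined into a run. The 3 runs together spanned 4145 bases, or 4.15% of the window. They held 109 of the 148 listed peaks, and none of the 39 peaks outside them was enriched. Median log2 folds inside the runs were 3.91, 5.12, 6.39 and 6.50 in libraries 1 to 4, and outside them 1.08, 1.06, 1.35 and 1.34. Enrichment chose the runs, so this contrast only describes how narrow they were. All 4 libraries had enriched peaks in each of the 3 runs.

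The middle run, chr7:158573517-158575534, was the longest at 2018 bases and began 47.5 kb inside the window's upstream edge, reading along the minus strand. Its 13 regions covered 78.2% of it, and 8, 19, 14 and 18 enriched peaks came from libraries 1, 2, 3 and 4. Its top log2 folds were 6.31, 6.80, 7.58 and 7.59. The run nearest the upstream edge, chr7:158596112-158597637, spanned 1526 bases at 25.4 kb from the edge, and had 3, 14, 6 and 11 enriched peaks with top log2 folds of 6.06, 6.92, 8.76 and 7.50. The run furthest downstream, chr7:158549811-158550411, spanned 601 bases at 72.6 kb from the edge, and had 1, 3, 4 and 3 enriched peaks with top log2 folds of 3.52, 4.58, 4.71 and 6.002. In every library this downstream run had a lower top fold than the other ESYT2 runs. Between neighbouring runs lay 23.1 kb and 20.6 kb with no enriched peak.

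**Figure D3:**
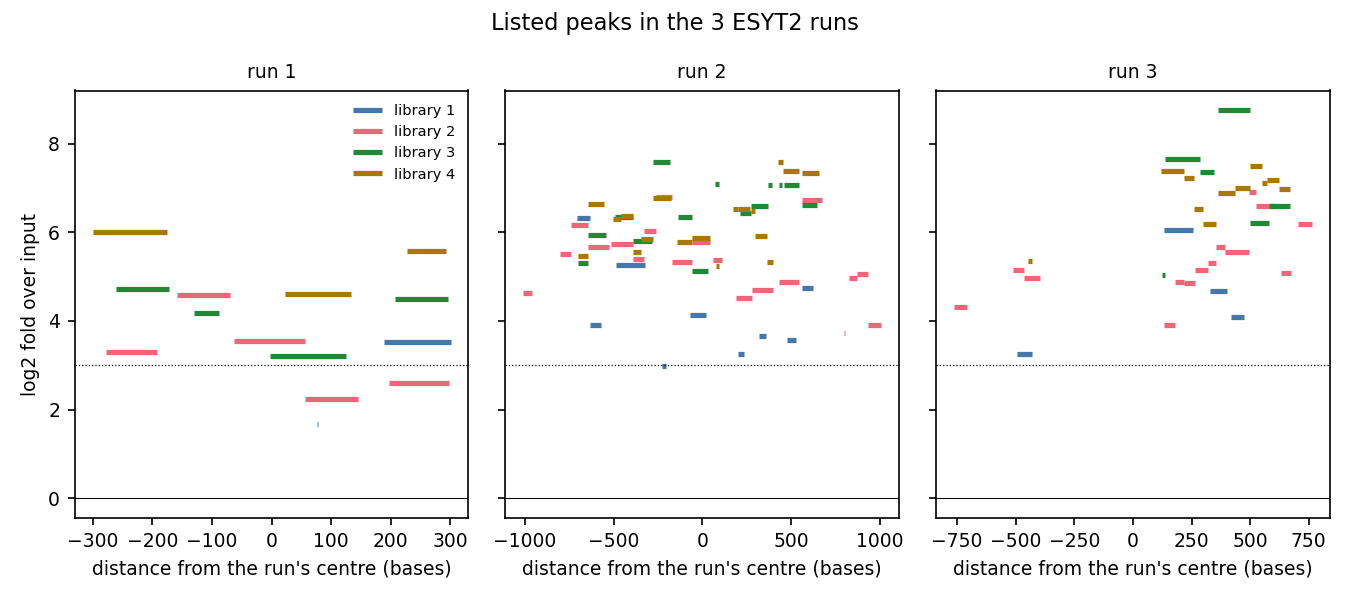
Listed peaks in the ESYT2 runs, each drawn as a bar as wide as the peak at its log2 fold over input (vertical axis), against distance in bases from the run's centre (horizontal axis), by library (colour). Run 1 is the downstream run, run 2 the middle one and run 3 the upstream one, and the dotted line marks a log2 fold of 3. In run 2 library 1 mostly lies beneath libraries 3 and 4, and run 3 holds the 8.76 of library 3.

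A region was called reproducible where at least 3 of the 4 libraries had an enriched peak in it, which was so for 22.7% of the 7472 regions of the series. Libraries 3 and 4 count separately here, so 3 libraries can be 2 samples. That was the case for 4 of the 11 reproducible regions in ESYT2, for 0 of 13 in PTPRN2 and for 8 of 9 in the rest. In ESYT2 11 of 22 regions were reproducible (50.0%), and 7 of them were enriched in all 4 libraries (31.8%, against 12.6% over the series). The 11 reproducible regions had a median width of 196 bases and together covered 2270 bases. Each region was given, per library, the log2 fold of its top enriched peak, which can favour wide regions. The mean over samples ran from 3.73 to 7.04 with a median of 5.33, where the series' reproducible regions ran from 3.14 to 8.23 with a median of 4.71.

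The highest was the core of the upstream run, chr7:158596996-158597548, which merged 29 enriched peaks over 553 bases. Its log2 fold was 6.06, 6.92, 8.76 and 7.50 in libraries 1 to 4, a mean of 7.04 ± 1.04 (SD, n = 3). The region's value leans on its steepest peaks, since the width-weighted mean of its peaks gave 5.98. The 8.76 of library 3 has a −log10 p of 15.7, where 1 to 4 input reads, and so 204 to 816 immunoprecipitation reads, give the same pair of deposited values. Reads here and below were worked back from each peak's deposited fold and p.

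Next came chr7:158574013-158574353 in the middle run, 341 bases wide, with log2 folds of 5.25, 6.80, 7.58 and 6.78 in libraries 1 to 4 and a mean of 6.41 ± 1.02 (SD, n = 3). Its neighbour chr7:158573784-158574000, 217 bases, stood at 6.31, 6.17, 5.93 and 6.64, a mean of 6.26 ± 0.076, and was the ESYT2 region on which the samples differed least. That closeness belongs to the top peak alone: in library 1 the top peak held 25 reads over 1 input read, and by width-weighted mean the region stood at 5.69. At chr7:158575087-158575201, 115 bases, the folds were 4.75, 6.72, 6.61 and 7.34, a mean of 6.15 ± 1.22. Library 2 held 304 immunoprecipitation reads over 3 input reads there, and library 1 held 17 over 2.

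The other named regions of the middle run showed a wider gap between library 1 and libraries 3 and 4. The region chr7:158574952-158575072, 121 bases, stood at 3.57, 4.88, 7.07 and 7.59, a mean of 5.26 ± 1.91 (SD, n = 3). In library 1 it rested on 15 reads over 4 and in library 2 on 198 over 7, and one of its peaks in library 4 held 461 over 4. At chr7:158574702-158574924, 223 bases, the folds were 3.67, 4.69, 7.06 and 6.53, a mean of 5.05 ± 1.60, from 12 reads over 3 in library 1 and 173 over 7 in library 2. At chr7:158574354-158574568, 215 bases, they were 4.13, 5.77, 6.34 and 5.86, a mean of 5.33 ± 1.06, from 22 reads over 4 in library 1, 262 over 5 in library 2 and 191 over 5 in library 3. The short region chr7:158574588-158574636, 49 bases, was not listed in library 1 and stood at 5.36, 7.09 and 5.24 in libraries 2, 3 and 4, a mean of 5.76 ± 0.57 (SD, n = 2).

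The 3 reproducible regions of the downstream run fell outside the rule for named regions and were each enriched in 3 libraries. They are given because they make up a whole run. The first, chr7:158549811-158549938, stood at 3.31, 4.71 and 6.002 in libraries 2, 3 and 4 and was not listed in library 1. The second, chr7:158550049-158550244, stood at 3.56, 3.21 and 4.60 in those libraries and was listed at 1.67 in library 1. The third, chr7:158550300-158550411, stood at 3.52, 4.50 and 5.59 in libraries 1, 3 and 4, while library 2 listed it at 2.61 with a −log10 p of 10.1, past the p threshold but short of the fold.

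Library 1 thus held the low end of ESYT2. It was enriched in 8 of the 11 reproducible regions and had the lowest fold in 7, whereas libraries 3 and 4 were enriched in all 11 and between them had the highest fold in each, 5 in library 3 and 6 in library 4. Median log2 folds over these regions were 4.44, 5.57, 6.61 and 6.53 in libraries 1 to 4. The 9 ESYT2 regions enriched in 1 library alone all came from library 2, which listed the most peaks. All 12 enriched ESYT2 peaks of library 1 overlapped an enriched peak of library 3 and of library 4, and 91.7% of them one of library 2. The reverse shares were 62.5%, 59.4% and 47.2%. These shares depend on how many enriched peaks each library has there, and no share over the series stands beside them.

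ESYT2 peaks often stood end to end. The share of listed peaks that directly abut another on the same strand was 15.0%, 36.1%, 29.0% and 50.0% in libraries 1 to 4, where all peaks outside the 7q end gave 13.6%, 5.74%, 12.0% and 4.69%. In PTPRN2 it was 23.1%, 3.75%, 0% and 3.23%, above ESYT2 in library 1. These shares are over listed peaks, and none over enriched peaks alone stands beside them. Counted with all peaks at most 5 kb apart as one, the enriched peaks of ESYT2 came to 3 per sample in place of 25.3, and those of PTPRN2 to 3.5 in place of 17.8, so by that count the ESYT2 and PTPRN2 totals are close.

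PTPRN2 peaks were more scattered, and by median fold they were weaker than ESYT2 peaks in libraries 2, 3 and 4 but not in library 1. Of its listed peaks 22 of 52, 21 of 80, 8 of 16 and 13 of 31 were enriched in libraries 1, 2, 3 and 4. The shares were 42.3% (29.9% to 55.8%), 26.3% (17.9% to 36.8%), 50.0% (28.0% to 72.0%) and 41.9% (26.4% to 59.2%), each above its library's background. The mean was 38.2% ± 10.5 (SD, n = 3), from 17.8 ± 6.37 enriched peaks. Median log2 folds were 3.67, 2.31, 3.99 and 3.13, and the highest peaks stood at 5.99, 5.89, 4.41 and 5.79 in libraries 1 to 4. In library 1 the median lay above the 3.54 of ESYT2, and the highest peak lay below its 6.31. No PTPRN2 peak lay below input.

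Many PTPRN2 peaks passed the fold threshold on few reads. Of 179 peaks 108 had a log2 fold of at least 3, and 44 of these missed the p threshold. In ESYT2 1 of 105 did, and in the rest of the 7q end 49 of 109. No such count is given for the series. Among enriched PTPRN2 peaks with known reads, 1 of 19 rested on 1 input read in library 1, but 13 of 20 did in library 2, 8 of 8 in library 3 and 12 of 13 in library 4. Over whole lists 1023 of 3556, 1849 of 5052, 1257 of 2132 and 1816 of 3019 such peaks did in libraries 1 to 4, so most did in libraries 3 and 4. An input of 0 reads cannot be told from 1 in these values, so the folds of libraries 2, 3 and 4 in PTPRN2 depend on how the authors treated an empty input. With a −log10 p of at least 5 the mean enriched share of PTPRN2 was 23.6%.

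PTPRN2 held 5 runs over 5931 bases, 0.565% of its window, and 3 of them had a reproducible region. These 3 held 70 of the 179 listed peaks and all but 4 of the 64 enriched ones. Median log2 folds in them were 4.01, 4.31, 3.99 and 4.24 in libraries 1 to 4, and 3.25, 1.65, 3.38 and 2.54 in the rest of the window. As in ESYT2, enrichment chose the runs, so this contrast is a description only. The proximal dense run, chr7:157861961-157865277, spanned 3317 bases at 515.7 kb from the upstream edge. It had 11 regions, 6 of them reproducible, from 12, 12, 3 and 7 enriched peaks, with top log2 folds of 5.54, 5.89, 4.41 and 5.45. The distal dense run, chr7:158233049-158234795, spanned 1747 bases at 146.2 kb from that edge. It had 9 regions, 6 of them reproducible, from 8, 8, 2 and 5 enriched peaks, with top log2 folds of 5.99, 5.82, 4.41 and 5.79. The dense runs lay 367.8 kb apart. A run of 1 region, chr7:157790424-157790539, lay 71.4 kb proximal of the proximal dense run, with log2 folds of 3.67, 3.87 and 4.09 in libraries 1, 2 and 3.

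**Figure D4:**
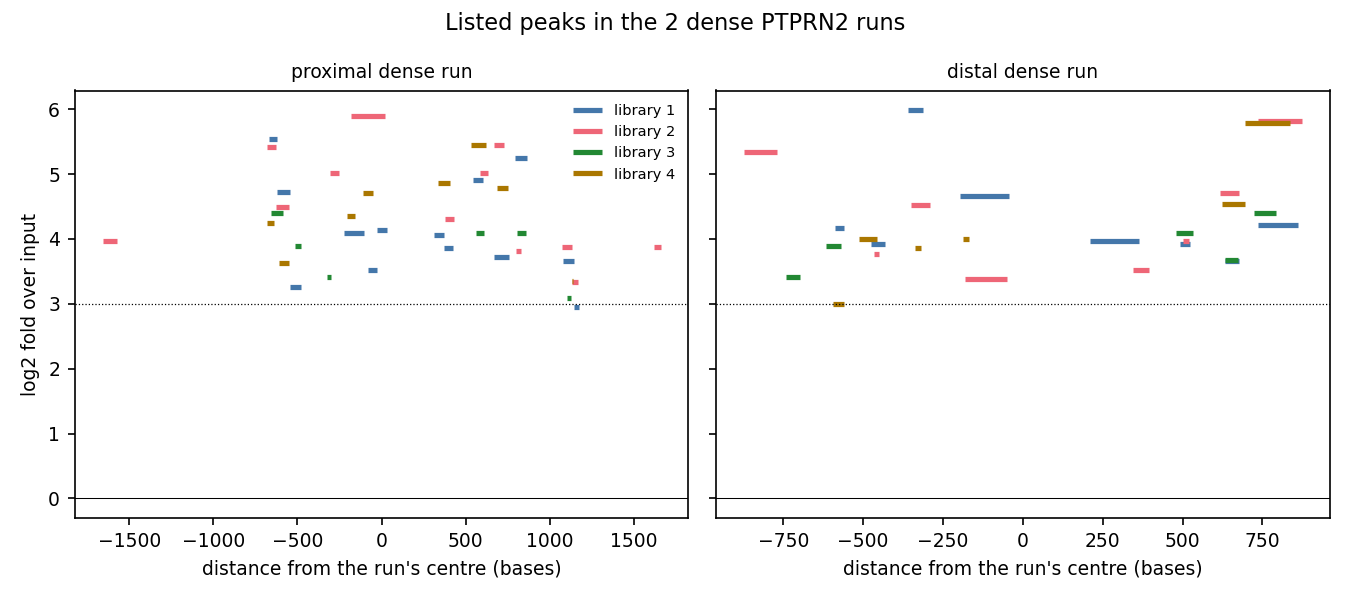
Listed peaks in the dense PTPRN2 runs, each drawn as a bar as wide as the peak at its log2 fold over input (vertical axis), against distance in bases from the run's centre (horizontal axis), by library (colour), with a dotted line at a log2 fold of 3. Bars of all 4 libraries mix between about 3 and 6, and library 3 stays at or below 4.41.

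In PTPRN2 13 of 24 regions were reproducible (54.2%, against 22.7% over the series) and 3 were enriched in all 4 libraries (12.5%, against 12.6%). Their mean log2 folds ran from 3.87 to 5.10 with a median of 4.41, close to the 4.71 of the series. The reproducible regions had a median width of 100 bases and covered 1504 bases in all.

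The highest by mean was chr7:157862939-157863075 in the proximal run, 137 bases, at 5.54, 5.42, 4.41 and 4.24 in libraries 1 to 4, a mean of 5.10 ± 0.67 (SD, n = 3). At the distal run's upstream end, chr7:158234619-158234795, 177 bases, stood at 4.22, 5.82, 4.41 and 5.79, a mean of 5.05 ± 0.80. It rested on 47 reads over 8 input reads in library 1, and on 54, 10 and 38 reads over 1 in libraries 2, 3 and 4. The region chr7:157864151-157864250, 100 bases, stood at 4.91, 5.02, 4.09 and 5.45, a mean of 4.90 ± 0.12. These are the PTPRN2 regions enriched in all 4 libraries, and in none of them did libraries 3 and 4 both exceed libraries 1 and 2.

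The other named PTPRN2 regions were each enriched in 3 libraries. In the proximal run chr7:157863394-157863648, 255 bases, stood at 4.15, 5.89 and 4.71 in libraries 1, 2 and 4, a mean of 4.92 ± 0.89 (SD, n = 3). At chr7:157864285-157864377, 93 bases, the folds in those libraries were 3.73, 5.45 and 4.79, a mean of 4.66 ± 0.87, and at chr7:157863934-157864050, 117 bases, they were 4.06, 4.31 and 4.86, a mean of 4.41 ± 0.41. None of these was listed in library 3. At chr7:157864412-157864482, 71 bases, libraries 1, 2 and 3 stood at 5.25, 3.82 and 4.09, a mean of 4.38 ± 0.76. In the distal run chr7:158233563-158233630, 68 bases, stood at 5.99, 4.52 and 3.86 in libraries 1, 2 and 4, a mean of 4.79 ± 1.09, from 20, 22 and 10 reads, each over 1 input read.

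The order of the libraries in PTPRN2 was not that in ESYT2, a difference that was not tested. Libraries 1 and 2 were enriched in all 13 reproducible PTPRN2 regions, library 4 in 10 and library 3 in 6. Median log2 folds, each over the regions in which that library was enriched, were 4.15, 4.52, 4.09 and 4.63. In library 3 the 4.09 was also the lowest value. It came from 8 reads over 1 input read with a −log10 p of 3.15, just past the threshold. Library 1 had the lowest fold in 7 of the 13 regions and the highest in 4, whereas in ESYT2 it had the highest in 0. Library 3 reached at most 4.41, from 10 reads over 1 input read, where libraries 1, 2 and 4 reached 5.99, 5.89 and 5.79. Of the enriched PTPRN2 peaks of library 1, 81.8% overlapped enriched peaks of library 2, 59.1% did so with library 4 and 31.8% with library 3. Conversely 81.0% of library 2, 92.3% of library 4 and 75.0% of library 3 overlapped library 1. As in ESYT2, these shares depend on the number of enriched peaks per library and have no share over the series beside them. The codes in the labels' descriptions put libraries 1 and 2 in one set and libraries 3 and 4 in another, and what the sets stand for is not stated. Whether the sets have a part in these differences was not tested.

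**Figure D5:**
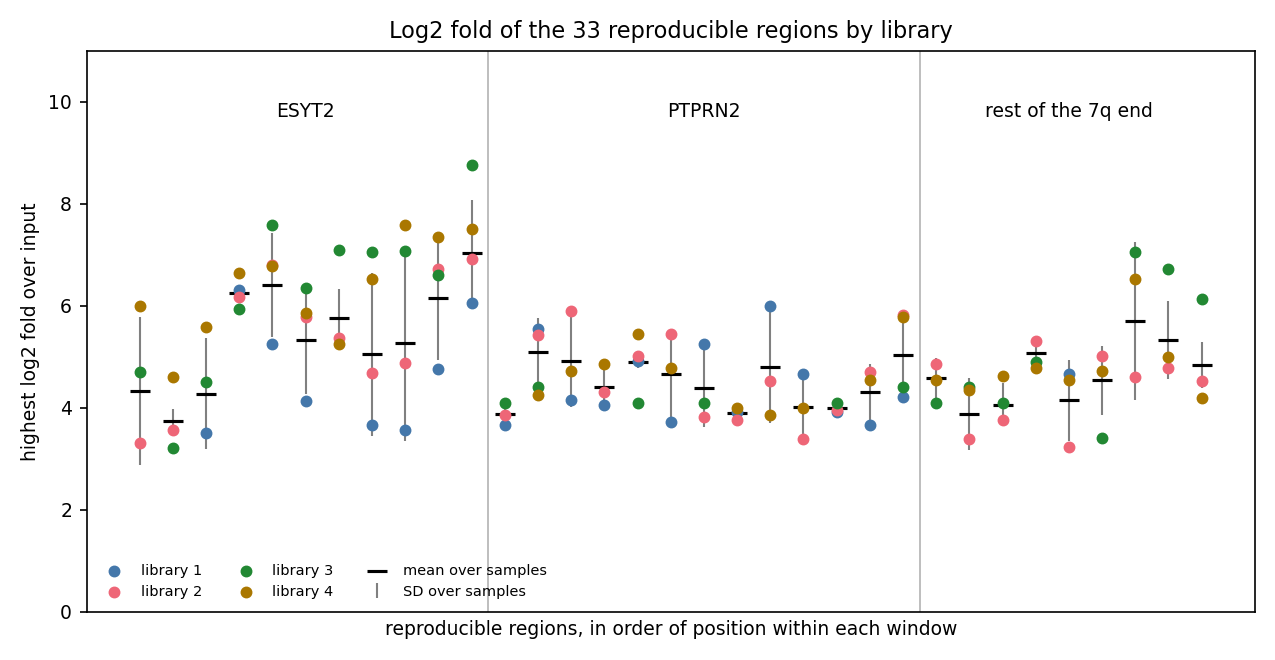
Highest log2 fold over input (vertical axis) of the 33 reproducible regions of the 7q end in each library (colour), in order of position within each window (horizontal axis), with the mean and SD over samples, where libraries 3 and 4 count as 1. Library 1 is lowest in 7 of 11 regions in ESYT2 and in 7 of 13 in PTPRN2, where the means stay between 3.87 and 5.10.

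Library 1 also held more immunoprecipitation reads in PTPRN2 than in ESYT2, and more input reads. Reads could be worked back for 19 of its 20 ESYT2 peaks and 49 of its 52 PTPRN2 peaks, and these held 229 and 799 immunoprecipitation reads, or 13.2 and 46.0 per 10000 worked back in that library. Library 3 gave 527 reads from 12 of 31 ESYT2 peaks, or 42.3 per 10000, and 109 reads from all 16 PTPRN2 peaks, or 8.75 per 10000. The order of ESYT2 and PTPRN2 in library 3 is thus the reverse of that in library 1, although most strong ESYT2 peaks of library 3 are left out of its sum. In library 2 the values were 34.5 per 10000 in ESYT2, from 35 of 61 peaks, and 9.18 in PTPRN2, from 79 of 80. In library 4 they were 22.9 in ESYT2, from 7 of 36 peaks, and 14.7 in PTPRN2, from all 31. The same peaks of library 1 held 70 input reads in ESYT2 and 174 in PTPRN2. Per 10000 input reads worked back in each library, ESYT2 held 9.35, 6.35, 8.38 and 2.82 in libraries 1 to 4. PTPRN2 held 23.2, 3.31, 2.91 and 4.61. Immunoprecipitation reads alone therefore do not measure enrichment over input.

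The width of a peak is not itself among the values behind the choice of the windows and was tested. It goes with enrichment, though. Over whole lists the median width had a mean of 48.8 bases for listed peaks and 81.5 for enriched ones. The windows were chosen for their enriched peaks, so the test cannot separate width from enrichment. Over enriched peaks alone the means were 68.25 bases in ESYT2 and 61 in PTPRN2. The median width of listed peaks was 53.5, 61, 79 and 57.5 bases in ESYT2 and 46, 52, 45 and 51 bases in PTPRN2 in libraries 1 to 4. ESYT2 was wider by 12.3 ± 6.97 bases (SD, n = 3), in 3 of 3 samples, with a mean of 60.9 against 48.7 (exact two-sided sign-flip permutation test, p = 0.25). With 3 samples 0.25 is the smallest p this test can give, so the difference could not pass a threshold of 0.05. Read numbers come from the same folds and p-values that led to the windows and are given with no test. The median number of immunoprecipitation reads per listed peak, over peaks with known reads, was 12, 38, 24 and 28 in ESYT2 and 6, 5, 7.5 and 7 in PTPRN2. Over samples the means were 25.3 and 6.08. Over enriched peaks alone the median reads were 17, 154, 35 and 99 in ESYT2 and 39, 28.5, 8 and 16 in PTPRN2, and library 1 went the other way.

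Elsewhere at the 7q end the mean yield was near that of the whole lists, with single libraries to either side. Of the listed peaks outside both windows 4 of 37, 25 of 304, 11 of 71 and 20 of 109 were enriched in libraries 1 to 4, or 10.8%, 8.22%, 15.5% and 18.3%. Whole lists gave 15.9%, 5.38%, 12.6% and 12.7%, and the rest of chromosome 7 gave 12.8%, 4.17%, 9.45% and 10.4%. Library 1 thus lay below both of these, and libraries 2, 3 and 4 lay above both. A mean of 14.8 ± 10.5 peaks (SD, n = 3) was enriched, and without library 2 it was 9.75. Of 521 peaks 58 lay below input, 54 of them in library 2 and 4 in library 4. Proximal of PTPRN2, library 2 listed 158 peaks on the plus strand and 74 on the minus strand, of which 4 and 12 were enriched. Between PTPRN2 and ESYT2, where RefSeq has NCAPG2 on the minus strand, all peaks were on the minus strand, with 1, 2, 0 and 3 enriched. Distal of ESYT2 all were on the plus strand, with 0, 7, 4 and 4 enriched.

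Reproducible regions outside the windows numbered 9 of 32 (28.1%, against 22.7%), and none was enriched in all 4 libraries. Library 1 was enriched in 1 of the 9, while libraries 2, 3 and 4 were enriched in 9, 8 and 9. With library 1 left out and 2 of the other 3 libraries asked for, 16 regions passed. The 9 lay in 6 runs, and 1 run held 4 of them.

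That run, chr7:158707651-158710822 on the plus strand, lies distal of ESYT2 and spanned 3172 bases. Library 1 listed 2 peaks there, none enriched, and libraries 2, 3 and 4 had 7, 4 and 4 enriched peaks with top log2 folds of 5.02, 7.06 and 6.52. Its region chr7:158710345-158710485, 141 bases, stood at 4.61, 7.06 and 6.52 in libraries 2, 3 and 4, a mean of 5.70 ± 1.54 (SD, n = 2). Library 1 listed it at 3.25 with a −log10 p of 1.35, past the fold but short of the p. At chr7:158710527-158710662, 136 bases, the folds were 4.79, 6.73 and 5.002, a mean of 5.33 ± 0.76. The abutting chr7:158710663-158710736, 74 bases, stood at 4.52, 6.13 and 4.19, a mean of 4.84 ± 0.45, and chr7:158710243-158710325, 83 bases, stood at 5.02, 3.41 and 4.71, a mean of 4.54 ± 0.68. Library 1 listed no peak in these last 3 regions. In libraries 3 and 4 the run's top folds lay above every PTPRN2 peak and below the highest ESYT2 peak, whereas in library 2 its 5.02 lay below the tops of both.

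The other named regions of the rest were on the minus strand, proximal of PTPRN2. The region chr7:156545808-156545936, 129 bases, stood at 5.31, 4.89 and 4.79 in libraries 2, 3 and 4, a mean of 5.08 ± 0.33 (SD, n = 2), from 38, 14 and 19 reads, each over 1 input read. The region chr7:154791160-154791312, 153 bases, stood at 4.87, 4.09 and 4.54, a mean of 4.59 ± 0.39, from 28, 8 and 16 reads, also each over 1. Library 1 listed a peak in neither.

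Across overlapping listed peaks of the whole 7q end, the log2 folds of libraries 2 and 4 correlated at Pearson r = 0.80 (102 peaks), those of libraries 2 and 3 at 0.73 (77 peaks) and those of libraries 3 and 4 at 0.84 (61 peaks). With library 1 the values were 0.47 for library 2 (61 peaks), 0.23 for library 3 (38 peaks) and 0.10 for library 4 (49 peaks). These are descriptions across peaks that share libraries, windows and depth, and neighbouring peaks are not independent. With the windows pooled, all 3 values with library 1 were below the 3 without it. Within ESYT2 those with library 1 were 0.34 to 0.42 and those without it 0.49 to 0.75. In the rest they were -0.48 to 0.28 and 0.64 to 0.75. Within PTPRN2 the order did not hold: libraries 1 and 3 gave 0.47 (12 peaks), and libraries 3 and 4 gave 0.21 (7 peaks).

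At the threshold the enriched peak of lowest fold stood at a log2 of 3.06 with a −log10 p of 4.69 (library 2, outside both windows). Just short of it lay a peak at 2.9994, also in library 2, and an ESYT2 peak of library 1 at 2.99. By p, the nearest enriched peak stood at 3.004 on the −log10 scale (library 3, outside both windows) and the nearest missed one at 2.99, a PTPRN2 peak of library 1 with a log2 fold of 3.47.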

How the data were processed

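Each of the 4 eCLIP libraries has its own peak list, with hg19 coordinates per the submitters' processing notes, so peaks were called per library. The 4 input libraries have no list. The deposited values per peak are a −log10 p-value of immunoprecipitation against input, stopping at 400, and a log2 fold over input. For the aligner and peak caller, names and versions were not given in the sources used here. The members, windows, thresholds and lists were chosen with earlier results of these data known, and runs were defined after the values were seen. The named regions are the reproducible ones of highest mean log2 fold: 8 in ESYT2, 8 in PTPRN2 and 6 in the rest.

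Read numbers were worked back from each pair of deposited values. The log2 fold was taken as log2 of a ratio of integer reads with 1 depth constant for each library. The p was taken as Fisher's exact test below 5 reads, computed as a binomial test, or chi-square otherwise, within a relative tolerance of 0.003. This recovered 94.4% to 100% of eligible peaks (above input, −log10 p of at least 0.1, neither at 15.7 nor at 400), each with at least 3 immunoprecipitation reads. The input to immunoprecipitation depth ratio was 3.18, 1.04, 2.12 and 1.46 in libraries 1 to 4. Total depth is unknown. On simulated data 100% of 2044 peaks came back, 0 wrong, and all 300 planted regions were recovered. The simulated peaks were made with the same formulas and depth ratios. Their return therefore checks the arithmetic alone, and cannot show that the formulas hold for the deposited values.

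Over 367 shared peaks the reads of libraries 3 and 4 had a chi-square per degree of freedom of 1.07 (p = 0.175), and the other pairs gave 6.59 to 12.6, so libraries 3 and 4 counted as 1 sample in means. The planned test of read numbers between ESYT2 and PTPRN2 is not reported, as reads derive from the values behind the windows. Intervals are 95% Wilson. Python 3.11.15, pandas 2.3.3, numpy 2.4.6, scipy 1.17.1 and matplotlib 3.10.9 were used. Alternatives covered thresholds, overlap, the joining of peaks and libraries left out. No sequence is printed, as no hg19 genome was used here.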

Additional observations from a re-analysis of the deposited data

Results flagged for a closer look

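In 3 of the 30 quantities compared over the 4 libraries, 1 library stood apart by Dixon's ratio, where chance alone gives about 1.5. That figure takes the 4 libraries as independent, whereas libraries 3 and 4 count as 1 sample elsewhere here. At the 7q end the enriched share of library 2 was 18.4% and the next library's 34.9%, a gap of 0.888 of the whole range. Library 2 listed 445 peaks there, 304 of them outside the ESYT2 and PTPRN2 windows. Its share was also the lowest of the 4 over whole lists, at 5.38%. The median width of listed peaks at the 7q end was 45 bases in library 1 and 51 bases in the next library, a gap of 0.857 of the range. Outside both windows it was 44 bases in library 1 and 50 bases in each of the 3 other libraries, a ratio of 1.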

How the results depend on the processing

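The order of the windows depended on the setting. By enriched peaks it was ESYT2, PTPRN2 and the rest, from high to low, but the reverse when peaks within 5 kb were joined, and without library 1 the rest (20.25) stood above PTPRN2 (15.75). By reproducible regions PTPRN2 stood above ESYT2, 13 to 11, but below it when all 4 libraries were asked for (3 to 7), with a −log10 p of at least 5 (6 to 11) and with an overlap of at least 20 bases (12 to 16). When enriched peaks within 5 kb of each other were joined, the mean enriched peaks per sample were 14 at the 7q end (58.0 without joining), 3 in ESYT2 (25.3), 3.5 in PTPRN2 (17.8) and 7.5 in the rest (14.8), and the enriched share was 47.9% in ESYT2 (67.4%) and 19.2% in the rest (12.0%). With a −log10 p of at least 5 the PTPRN2 share was 23.6% (38.2%), the rest had 9.33 peaks and a share of 6.91%, and reproducible regions were 6 in PTPRN2 (13) and 5 in the rest (9). Asking for all 4 libraries left 10 regions at the 7q end (33), 7 in ESYT2 (11), 3 in PTPRN2 and 0 in the rest, and asking for 2 gave 16 in the rest. These alternatives ask for fewer or more peaks or libraries by construction. With each library left out in turn, the rest had 9.75 to 20.25 enriched peaks and 9 to 16 regions. Of the counts and shares, 18 values moved beyond the spread or 1.5 times. Among values of single named regions, 8 moved by more than 1 SD and 90 did not. No paired analysis was possible because like-numbered eCLIP and input libraries have no separate values: input enters only through the deposited folds. Joining regions at most 1 kb apart, an alternative added after seeing the data, gave 3, 3 and 6 runs with a reproducible region, as did 5 kb. Libraries not known to be separate cultures, input reads of 0 or 1, and p-values at their top limit the precision of single folds, and 3 samples cannot give a p below 0.25.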
